A study of Mus musculus with 24 samples.

Results

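The genes described here build and run the mitotic apparatus: centromeric chromatin, the kinetochore, the spindle checkpoint, the protectors and cleaver of sister chromatid cohesion, mitotic kinases, condensin, the spindle and the cleavage furrow. They were taken by symbol from a fixed list of 46 protein-coding genes, kinesins other than Cenpe left out, and all 46 were found among the 56748 genes of the count table and passed the filter on low counts in every comparison. Messenger RNA was sequenced from mouse liver endothelial cells (Cd31+) and liver sinusoidal endothelial cells (Cd146+), which the methods describe as isolated with magnetic beads from C57BL/6 females aged 3 months, cultured and transduced with lentivirus. Each population carried 1 of 4 constructs, a non-coding hairpin (nc shRNA), a hairpin against P16Ink4a (P16 shRNA), an empty expression vector, or P16 cDNA, and RNA was taken 7 days later from 3 libraries per group, 24 in all. All groups were therefore transduced cells in culture. The 2 controls sit in different vector backbones, so each treatment was read against its own control.

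Kinetochores assemble on centromeric chromatin and tie chromosomes to spindle microtubules. While any kinetochore is unattached, the spindle checkpoint restrains the anaphase-promoting complex; once all are attached, separase cuts cohesin, the chromatids part, and the central spindle positions the furrow that divides the cell. These transcripts accumulate late in the cell cycle. P16Ink4a inhibits the cyclin D-dependent kinases, which inactivate the retinoblastoma family of repressors, and in resting cells many mitotic genes are repressed through a promoter element known as the CHR (cell cycle genes homology region), often found near CCAAT boxes that bind the activator NF-Y.

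Promoter letters are shown because the members moved largely together. A RefSeq promoter of 300 bases (250 before and 50 after the transcript start, build GRCm38.p6) was at hand for 39 of the 46 members. CHR letters, TTTGAA or TTTAAA on either strand, occurred in 28 of these 39 (71.8%), against 27.6% of the protein-coding genes with a promoter. Counted only within 50 bases of the start, a narrower window added later, they occurred in 24 members (61.5%) and in 7.91% of protein-coding genes. CCAAT on either strand occurred in 29 members (74.4%) against 42.3%. E2F letters, TTCCCGC or TTGGCGC on either strand, occurred in 8 members (20.5%) against 10.3%. TTGGCGC and the reversed CCAAT box share the letters TTGG. These matches are descriptions of letters, not sites shown to be bound. The windows below, 30 bases each and read 5′ to 3′ on the gene's strand, belong to members whose values are given further on, and the capitals mark the CHR letters (TTCAAA is TTTGAA on the other strand).
Zwint (chr10:72654819-72654848, plus strand): gaggtgacgtcaTTTAAAgtcctgcccact
Cenpf (chr1:189688067-189688096, minus strand): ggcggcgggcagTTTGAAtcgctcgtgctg
Cenpn (chr8:116921719-116921748, plus strand): gccattggcggcTTCAAAagcacctcggcg
Cdc20 (chr4:118437344-118437373, minus strand): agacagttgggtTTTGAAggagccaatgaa
Aurka (chr2:172370521-172370550, minus strand): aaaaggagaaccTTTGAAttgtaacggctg
Top2a (chr11:99024195-99024224, minus strand): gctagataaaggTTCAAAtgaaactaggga
Ect2 (chr3:27153822-27153851, minus strand): cgactggattttTTTGAAtcggaggcggca
The Cenpn window also holds a reversed CCAAT box, attgg, before the CHR letters, and the Cdc20 window a CCAAT box, ccaat, after them. Pttg1 (securin), Knstrn, Mad2l1, Nuf2 and Nusap1 held no CHR, CCAAT or E2F letters in their promoters.

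Library totals ran from 15409767 to 26470392 counts, and the members took 0.0680% to 0.315% of them. Cdkn2a, which encodes P16Ink4a and also the Arf product, checked the labels: it averaged 56.8 ± 19.9 CPM (normalised read count scaled to library size; SD, n = 3) with nc shRNA and 6.67 ± 2.23 with P16 shRNA in Cd31+ cells, and 139 ± 52.1 against 14.9 ± 9.50 in Cd146+ cells. With P16 it averaged 230.1 ± 96.7 against 56.8 ± 23.7 with the empty vector in Cd31+ cells, and 498 ± 308 against 92.0 ± 19.4 in Cd146+ cells, without overlap in any of the 4 comparisons. The cells were stated to come from females, but 16 libraries held Y-linked transcripts (124 to 255 CPM in sum) and almost no Xist. The other 8 held Xist (327 to 761 CPM) and almost no Y-linked transcript. Libraries with the same replicate number fell in the same class within a population, and numbers 1, 2, 3 and 5 did so across both. Of 16 endothelial markers 13 exceeded a mean of 1 CPM, while Stab2, Clec4g and Cldn5 did not. Their sum ran from 314 to 2755 CPM, against 6658 to 51169 CPM for 13 mesenchymal markers (Col1a1 alone averaged 10954), 38.4 to 982 CPM for cholangiocyte markers, 14.9 to 379 CPM for macrophage markers and at most 0.917 CPM for hepatocyte markers. In bulk RNA, fewer dividing cells and less RNA per dividing cell cannot be told apart.

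The level per gene length, in the deposited FPKM (fragments scaled to gene length and library size), differed widely between members. Zwint, which links the outer kinetochore to checkpoint proteins, had the highest mean, 41.0 ± 12.3 FPKM (SD over 24 libraries). It was followed by Cdc20, the activator of the anaphase-promoting complex, at 26.1 ± 8.34 FPKM, by the condensin ATPase Smc4 at 18.8 ± 4.71 FPKM, and by the spindle assembly factor Tpx2 at 18.1 ± 5.51 FPKM. Their ranges over libraries overlapped, so neighbours in this order did not separate. Cenpk, a subunit of the inner kinetochore network, was lowest at 0.872 ± 0.282 FPKM. In the Ndc80 complex, the microtubule coupler, Ndc80 averaged 2.42, Nuf2 3.35, Spc25 5.41 and Spc24 5.46 FPKM, with overlapping ranges over libraries. In CPM, which is not divided by gene length, the means ran in another order: 15.9, 21.5, 17.5 and 14.3.

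**Figure D1:**
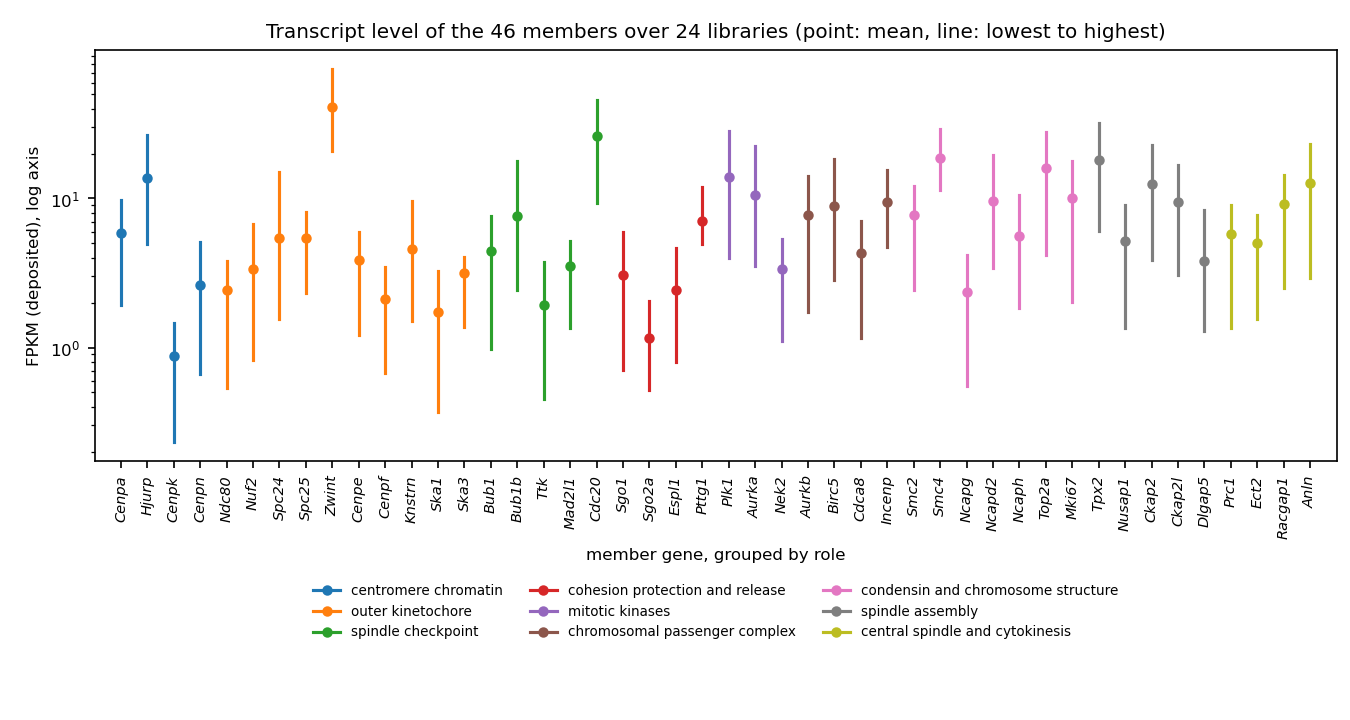
Deposited FPKM of the 46 members on a log axis, grouped and coloured by role; points are means over 24 libraries and lines run from the lowest to the highest library. Zwint stands highest, with a mean of 41.0 FPKM, and Cenpk lowest, with 0.872 FPKM.

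The members varied together across libraries. On log2 CPM, the leading principal component of the 46 genes held 83.8% of their variance over the 24 libraries, which share populations, constructs and replicate numbers, and 45 members, all but Pttg1, had a loading of the same sign. The smallest loadings were those of Pttg1, Zwint, Hjurp, Smc4 and Ska3. Highest-to-lowest library folds ran from 2.35 for Pttg1 to 9.79 for Spc24. The summed CPM of the members was 2286, 2148 and 1835 in the Cd31+ nc shRNA libraries and 2151, 2652 and 2436 in the P16 shRNA libraries, which overlapped. It was 2217, 2327 and 1737 with the empty vector and 1648, 1724 and 1549.7 with P16 in Cd31+ cells, with no overlap. In Cd146+ cells the sum was 987, 1619 and 1781 with nc shRNA, 3177, 1927 and 1706 with P16 shRNA, 1813, 2048 and 1609.9 with the empty vector, and 724, 1398 and 1312 with P16. Here the silencing groups overlapped and the overexpression groups did not. A pair of Cd146+ libraries stood at the ends: P16 replicate 1 was the lowest of all 24 for 43 members, and P16 shRNA replicate 3 the highest for 31. The Cd146+ nc shRNA library numbered 1 was also low, at 987 CPM in sum, and no empty vector library there carried that number.

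**Figure D2:**
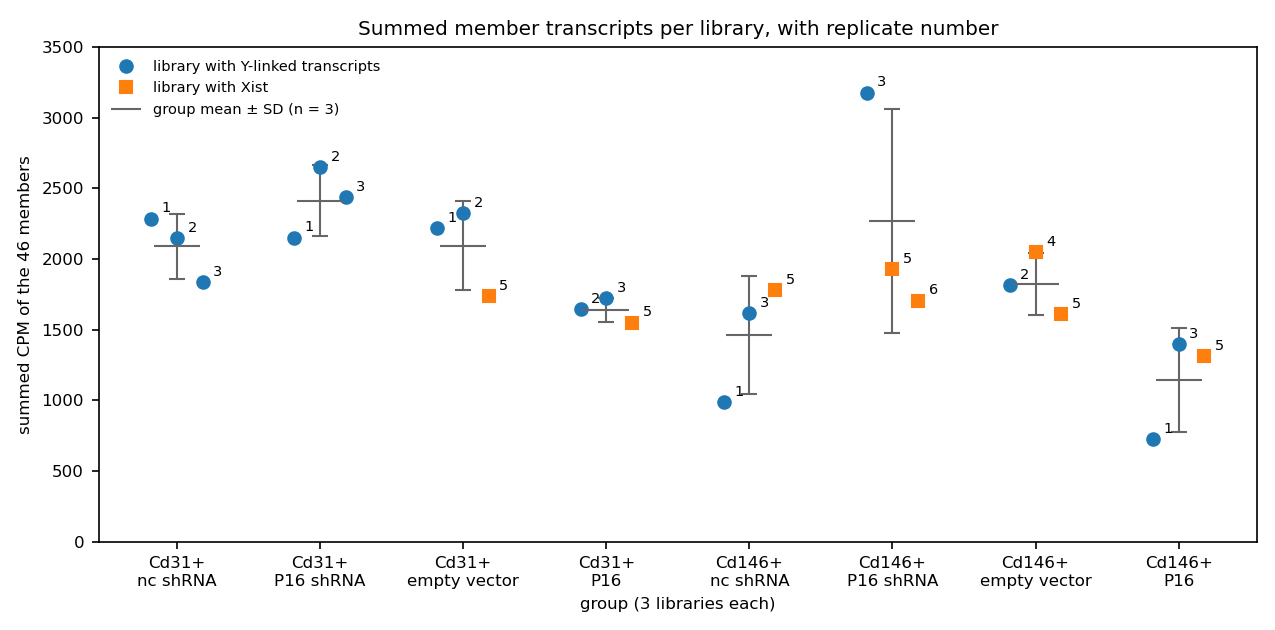
Summed CPM of the 46 members in each library (points, with the replicate number; circles hold Y-linked transcripts, squares Xist) and group mean ± SD for 3 libraries. Sums run from 724 in Cd146+ P16 replicate 1 to 3177 in Cd146+ P16 shRNA replicate 3.

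**Figure D3:**
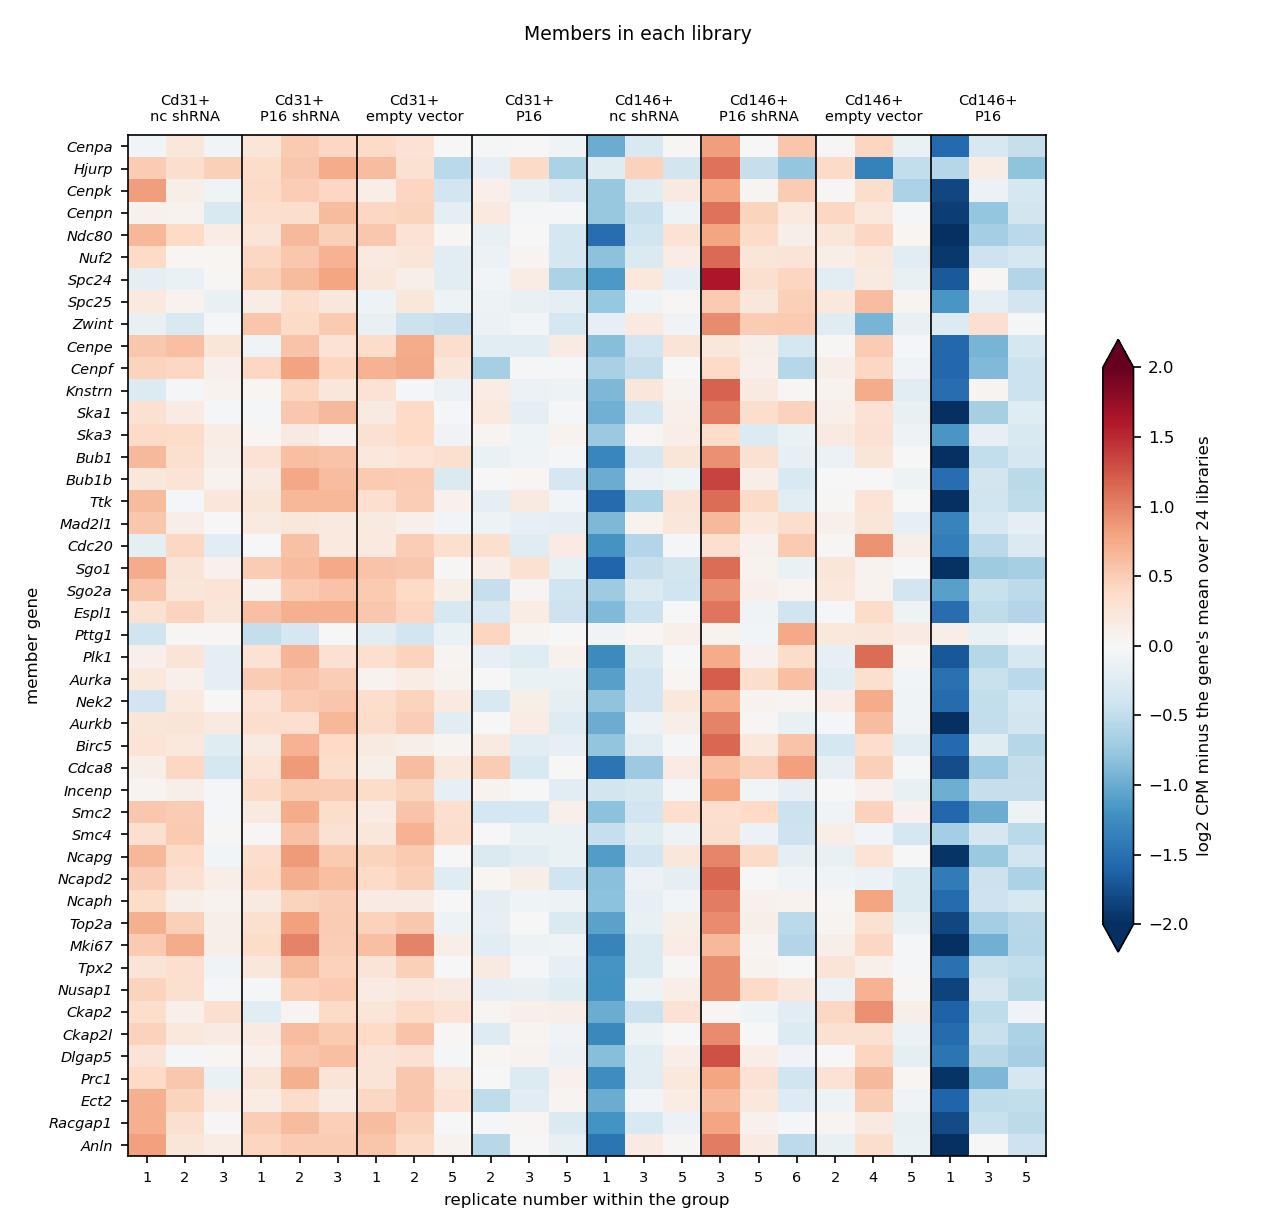
Log2 CPM of each member in each library relative to that member's mean over the 24 libraries, with members ordered by role and libraries by group. Most members are high together in Cd146+ P16 shRNA replicate 3 and low together in Cd146+ P16 replicate 1, while the lines of Zwint, Pttg1 and Hjurp run apart.

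Which members responded to P16 was tested per gene with edgeR's quasi-likelihood test, where p is unadjusted unless called adjusted (Benjamini-Hochberg over all genes tested). With silencing in Cd31+ cells, 40 of 46 members lay above 0, the median log2 fold change was 0.24 (0.0034 over all genes), and 9 members (19.6%) rose at p under 0.05, beside 9.51% of all genes. None fell, against 10.3% of all genes, and 11 had all P16 shRNA libraries above all nc shRNA libraries (13.8% of all genes on the log2 CPM scale). Only Zwint passed at an adjusted p under 0.05, as did 1.3% of all genes. By DESeq2's Wald test 3 members did. Shares of all genes, here and below, come from edgeR's fits without a replicate block. Counts by DESeq2, with a block, with an added term or with a library left out stand without such a share. The count of 9 went to 5 without P16 shRNA replicate 2 and to 5 without P16 shRNA replicate 3, and no member passed the adjusted threshold when any single library was left out. With the replicate number as a block, 16 members rose, 9 of them at an adjusted p under 0.05 when only these 6 libraries were fitted and 6 when all 12 Cd31+ libraries were. By number, 41 members were higher with P16 shRNA in pair 2 and 44 in pair 3, but 32 were lower in pair 1. All 6 of these libraries held Y-linked transcripts. Endothelial markers summed to 319 to 704 CPM with P16 shRNA and 524 to 1128 CPM with nc shRNA, and mesenchymal markers to 24168 to 51169 and 20249 to 37865 CPM; their part in the result was not tested.

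With silencing in Cd146+ cells all 46 members lay above 0, with a median of 0.75 (0.03 over all genes), and 14 (30.4%) rose at p under 0.05, beside 5.44% of all genes, while none fell, beside 6.18%. The groups did not overlap for 17 members (10.5% of all genes). No member passed by edgeR or by DESeq2 at an adjusted p under 0.05, nor did any other gene by edgeR, and DESeq2 gave 18 members at an unadjusted p under 0.05. The count of 14 went to 4 without nc shRNA replicate 1, to 5 without nc shRNA replicate 3, and to 5 without P16 shRNA replicate 3. The block gave 9 members within the groups and 29 over all 12 Cd146+ libraries, of which 5 (Spc24, Zwint, Sgo1, Sgo2a and Cdca8) had an adjusted p under 0.05. By number, 46 members were higher with P16 shRNA in pair 3 (median log2 difference 1.11) and 32 in pair 5 (0.080), where 14 were lower. Within the libraries holding Y-linked transcripts the median difference was 1.53 (1 P16 shRNA library against 2), and within those holding Xist it was 0.0083 (2 against 1), with 23 members on each side of 0. The only P16 shRNA library holding Y-linked transcripts was replicate 3, without which the median over all remaining libraries was 0.40, and with a term for the Y-linked transcripts the count was 14 and the median 0.76. Mesenchymal markers summed to 25602 to 31944 CPM with P16 shRNA and 11139.6 to 27533 CPM with nc shRNA, and their part in the result was not tested.

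With overexpression the direction turned. In Cd31+ cells 44 members lay below 0 with P16, with a median of -0.28 (0.01 over all genes). At p under 0.05, 17 members (37.0%) fell, beside 2.29% of all genes, and Pttg1 alone rose, beside 1.45% of all genes. The groups did not overlap for 18 members that were lower with P16 (6.07% of all genes) and for Pttg1, which was higher (4.61%). None passed at an adjusted p under 0.05 by edgeR or DESeq2, and DESeq2 gave 17 at an unadjusted p under 0.05. The total of 18 went to 9 without empty vector replicate 1, to 4 without empty vector replicate 2 and to 8 without P16 replicate 2. With the block within the groups, 11 members fell, and Cenpf reached an adjusted p of 0.0334. The median was -0.35 within the libraries holding Y-linked transcripts (2 against 2) and -0.15 within those holding Xist (1 against 1).

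In Cd146+ cells 45 members lay below 0 with P16, with a median of -0.90 (-0.0027 over all genes), and 23 fell at p under 0.05, beside 1.99% of all genes, while none rose, beside 1.55%. For 38 members every P16 library lay below every empty vector library, as for 4.89% of all genes. None passed at an adjusted p under 0.05 by edgeR or DESeq2. DESeq2 gave 31 at an unadjusted p under 0.05, a count without a share of all genes beside it. The count of 23 went to 1 without empty vector replicate 4 and to 14 without empty vector replicate 2, and to 4, with a median of -0.46, with the replicate block over the 12 libraries. A term for the Y-linked transcripts left 12. Number 5 alone was held by both groups, and in that pair 44 members were lower with P16 (median log2 difference -0.35). The median was -1.0002 within the libraries holding Y-linked transcripts (2 against 1) and -0.60 within those holding Xist (1 against 2).

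**Figure D4:**
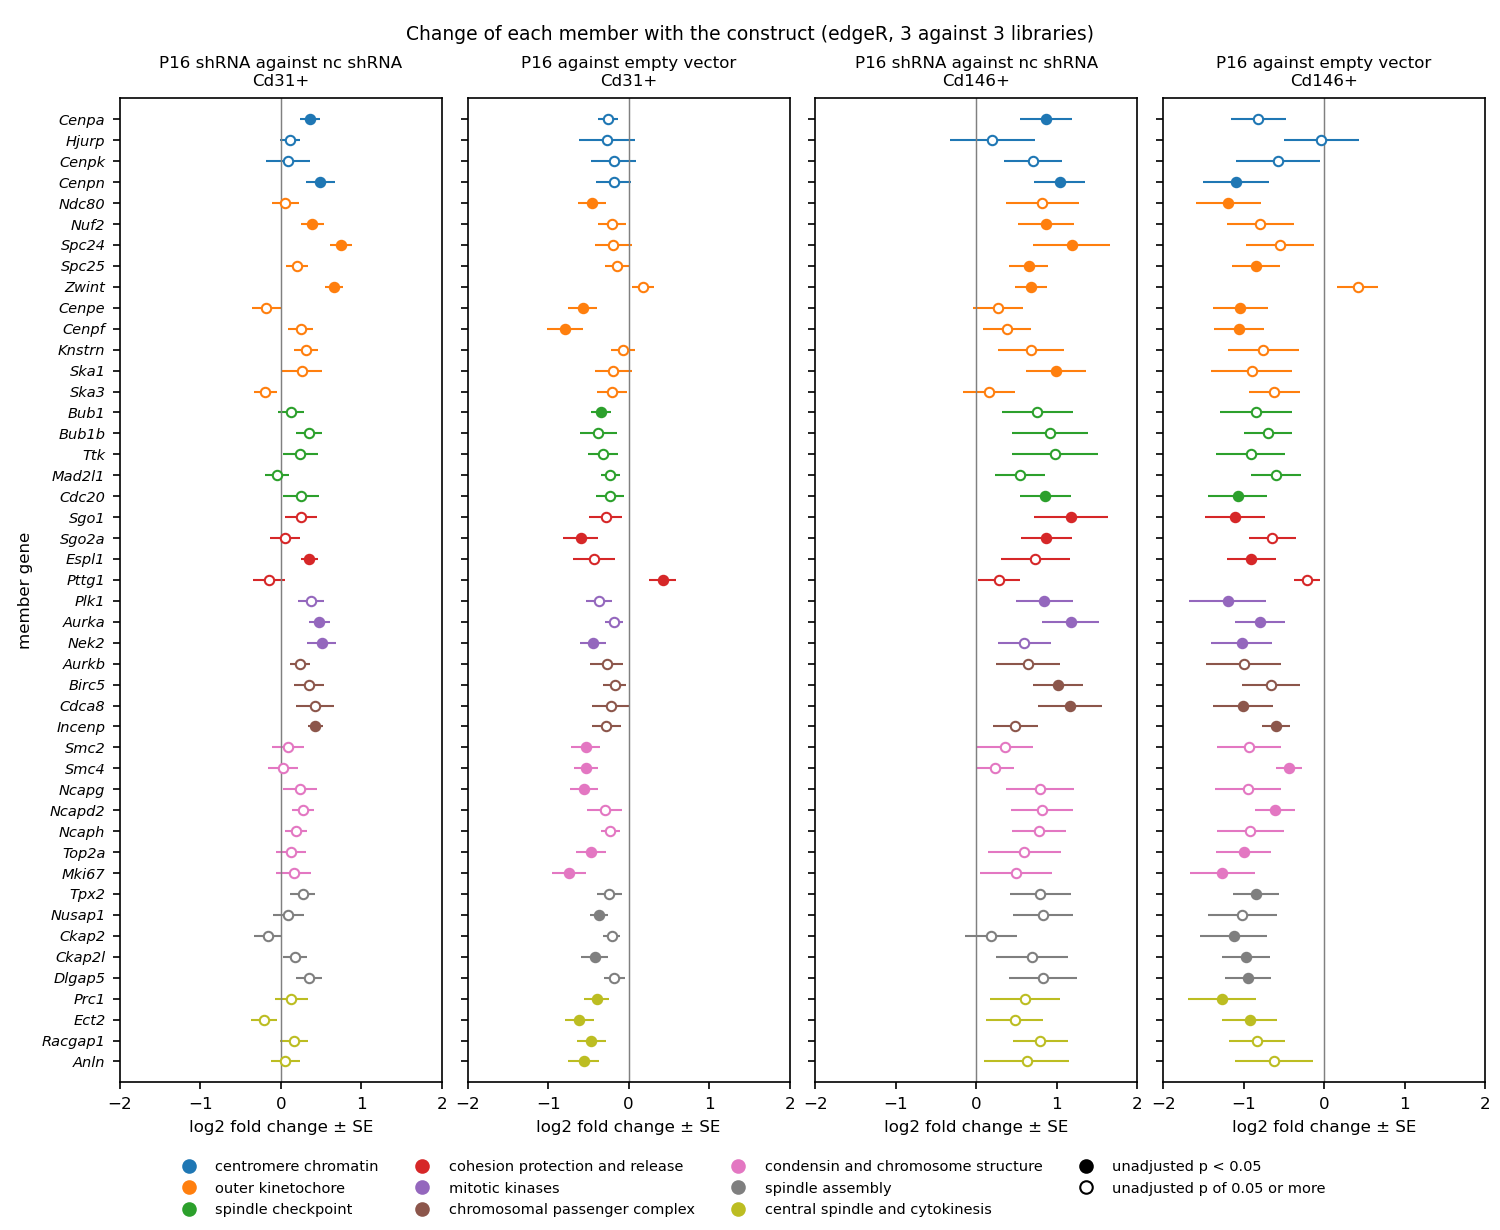
Log2 fold change ± SE of each member in the 4 comparisons of a P16 construct with its control, coloured by role; filled points have an unadjusted p under 0.05 in edgeR's quasi-likelihood test. Points lie mostly to the right of 0 under silencing and to the left under overexpression, with Zwint to the right in all 4 panels.

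Of the 9 members that rose on silencing in Cd31+ cells, 6 (66.7%) were among the 14 (42.9% of them) that rose in Cd146+ cells: Zwint, Cenpa, Aurka, Nuf2, Spc24 and Cenpn. Of all 46 members, 30.4% rose in Cd146+ cells. Of the 17 that fell on overexpression in Cd31+ cells, 10 (58.8%) were among the 23 (43.5%) that fell in Cd146+ cells: Top2a, Mki67, Smc4, Prc1, Cenpe, Cenpf, Ckap2l, Ect2, Ndc80 and Nek2. That 58.8% was near the share of all 46 members that fell in Cd146+ cells, 50%. These comparisons share no libraries, but replicate numbers recur across the populations and fell in the same library class in both. Whether equal numbers stand for the same animals is not given, so the populations may not be independent. Among the members named below, those with p under 0.05 whichever library was left out were Zwint, Spc24, Incenp, Aurka and Espl1 for silencing in Cd31+ cells, Zwint, Aurka and Birc5 for silencing in Cd146+ cells, Cenpf, Ect2, Smc4 and Mki67 for overexpression in Cd31+ cells, and Cenpf for overexpression in Cd146+ cells. In what follows, a log2 fold change and its SE stand in brackets, and a member is said to have risen or fallen only where its unadjusted p was under 0.05. These calls come from edgeR's fits without a replicate block. Over the other settings, leave-outs aside, unadjusted p by edgeR or DESeq2 reached 0.123 for Espl1 on silencing in Cd31+ cells. The other members listed above for silencing, and those for overexpression in Cd31+ cells, stayed under 0.05. For overexpression in Cd146+ cells, unadjusted p by edgeR or DESeq2 varied over these settings. It reached 0.333 for Smc4, 0.275 for Nek2, 0.199 for Dlgap5, 0.188 for Incenp and 0.153 for Aurka. For Top2a, Cenpn and Plk1 it reached 0.127, 0.117 and 0.103. For Prc1, Ckap2l and Ndc80 it reached 0.095, 0.093 and 0.089. For Cdc20, Cenpf and Mki67 it reached 0.066, 0.0593 and 0.0589, and for Sgo1 at most 0.0466. The lowest adjusted p of any member was 0.384 for silencing in Cd146+ cells, 0.947 for overexpression in Cd31+ cells and 0.986 for overexpression in Cd146+ cells.

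At the centromere, Cenpa, the histone H3 variant that marks it, and Cenpn, which reads Cenpa nucleosomes, were the 2 of 4 members that rose on silencing in both populations. Cenpn gave 8.71, 8.66 and 6.63 CPM with nc shRNA and 10.3, 10.4 and 12.7 CPM with P16 shRNA in Cd31+ cells, without overlap (log2 fold change 0.49, SE 0.18). In Cd146+ cells it gave 4.86, 6.01 and 7.64 CPM against 17.3, 11.2 and 9.44 CPM, again without overlap (1.04, SE 0.32). It was the only centromere member that fell with P16 in Cd146+ cells, from 10.97, 9.54 and 8.08 CPM to 2.23, 4.79 and 6.35 CPM (-1.09, SE 0.41). In Cd31+ cells none of the 4 passed on overexpression, although all 4 lay below 0, with a median of -0.22.

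The outer kinetochore had 3 of 10 members rising on silencing in Cd31+ cells (Zwint, Spc24 and Nuf2) and 5 of 10 in Cd146+ cells. Spc24, which joins the Ndc80 complex to the inner kinetochore, gave 11.4, 11.9 and 13.2 CPM with nc shRNA and 18.1, 20.2 and 22.4 CPM with P16 shRNA in Cd31+ cells, with no overlap (0.74, SE 0.14, adjusted p = 0.0604). In Cd146+ cells it gave 5.84, 14.99 and 11.5 CPM against 39.9, 16.3 and 17.5 CPM (1.18, SE 0.48), with replicate 3 far above the rest. Cenpf, a large protein of the kinetochore corona, behaved otherwise. On silencing its libraries overlapped in both populations, and with P16 it fell from 50.5, 52.6 and 36.8 CPM to 19.5, 30.6 and 30.1 CPM in Cd31+ cells (-0.79, SE 0.23). In Cd146+ cells it fell from 33.6, 41.5 and 29.6 CPM to 10.5, 16.9 and 23.0 CPM (-1.05, SE 0.31). Neither pair of groups overlapped. Cenpe, the plus-end-directed motor of the corona, fell in Cd31+ cells from 41.0, 52.6 and 40.5 CPM to 26.99, 27.1 and 35.5 CPM (-0.57, SE 0.18), and on silencing in Cd31+ cells its change was -0.18 (SE 0.18).

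Among the 5 checkpoint members none rose on silencing in Cd31+ cells, and Cdc20 alone rose in Cd146+ cells. Cdc20 gave 20.2, 30.8 and 45.7 CPM with nc shRNA and 58.8, 49.5 and 66.9 CPM with P16 shRNA there (0.86, SE 0.31), so that all P16 shRNA libraries were higher. With P16 it fell from 47.4, 87.0 and 50.4 CPM to 17.7, 32.1 and 37.9 CPM in Cd146+ cells (-1.07, SE 0.37). In Cd31+ cells the overexpression libraries overlapped (-0.23, SE 0.17), and the checkpoint member that fell there was Bub1, the kinase that recruits other checkpoint proteins and Sgo1 (-0.34, SE 0.12). Bub1b, the pseudokinase BubR1, gave 78.3 CPM in Cd146+ P16 shRNA replicate 3 and 33.4 and 24.8 CPM in the others.

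The guardians and cleaver of cohesion were divided. Espl1, which encodes separase, rose on silencing in Cd31+ cells from 25.0, 27.4 and 23.8 CPM to 30.6, 33.0 and 33.0 CPM (0.35, SE 0.11), without overlap. The shugoshins Sgo1 and Sgo2a, which shield centromeric cohesin, were the 2 of 4 that rose in Cd146+ cells, Sgo1 from 3.60, 7.81 and 8.39 CPM to 23.5, 11.4 and 9.83 CPM (1.17, SE 0.46). With P16, Sgo2a fell in Cd31+ cells from 11.2, 10.3 and 8.43 CPM to 5.65, 8.10 and 5.89 CPM (-0.60, SE 0.22). In Cd146+ cells Sgo1 fell from 12.8, 11.3 and 10.7 CPM to 2.73, 6.61 and 6.84 CPM (-1.11, SE 0.38), and Espl1 fell as well.

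All 3 mitotic kinases fell with P16 in Cd146+ cells, and Aurka responded to silencing in both populations. Aurka, the centrosomal Aurora kinase activated by Tpx2, rose in Cd31+ cells from 29.5, 27.4 and 22.1 CPM to 36.1, 37.6 and 35.7 CPM (0.48, SE 0.13). In Cd146+ cells it rose from 12.01, 19.4 and 26.2 CPM to 58.8, 32.3 and 38.4 CPM (1.17, SE 0.35), and in neither population did the groups overlap. With P16 in Cd146+ cells it fell from 21.8, 31.7 and 24.5 CPM to 8.98, 18.6 and 17.4 CPM (-0.80, SE 0.31). Plk1, the polo kinase, gave 25.8, 62.6 and 29.6 CPM with the empty vector and 8.87, 19.5 and 23.1 CPM with P16 there (-1.20, SE 0.48), with the high value in empty vector replicate 4. Nek2, a centrosome-splitting kinase, was the kinase that fell in Cd31+ cells, from 18.7, 20.03 and 16.6 CPM to 11.9, 15.9 and 12.8 CPM (-0.44, SE 0.16), and it rose there on silencing (0.51, SE 0.18).

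In the chromosomal passenger complex, which corrects faulty attachments, none of 4 members fell with P16 in Cd31+ cells. Its scaffold Incenp rose on silencing there from 42.2, 44.0 and 39.9 CPM to 52.6, 58.4 and 57.8 CPM (0.43, SE 0.10, adjusted p = 0.0861). Birc5, survivin, and Cdca8, borealin, rose in Cd146+ cells, Birc5 from 16.7, 25.1 and 28.0 CPM to 64.4, 33.5 and 43.0 CPM (1.01, SE 0.31), with all P16 shRNA libraries higher. Incenp fell with P16 in Cd146+ cells from 40.1, 43.1 and 36.6 CPM to 20.6, 29.2 and 29.4 CPM (-0.60, SE 0.18), and Cdca8 was the other of 4 that did.

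Of the 7 condensin and chromosome structure genes, 5 fell with P16 in Cd31+ cells and 4 in Cd146+ cells. None passed on silencing in either population, although all 7 lay above 0 in Cd146+ cells, with a median of 0.60. The contrast between silencing and overexpression was not tested. Mki67, the coat protein of mitotic chromosomes, fell from 140.3, 185 and 102 CPM to 79.8, 86.3 and 87.5 CPM in Cd31+ cells (-0.74, SE 0.21). In Cd146+ cells it fell from 101, 124 and 90.7 CPM to 20.6, 47.8 and 62.9 CPM (-1.26, SE 0.40), without overlap in either population. Smc4 fell in Cd31+ cells from 113, 156 and 123 CPM to 95.4, 87.4 and 87.2 CPM (-0.53, SE 0.15), the lowest p of any member there. Top2a, the decatenating topoisomerase, fell from 140, 168 and 122 CPM to 38.4, 84.7 and 92.4 CPM in Cd146+ cells (-0.999, SE 0.34), and on silencing in Cd31+ cells its change was 0.12 (SE 0.19).

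None of the 5 spindle assembly members passed on silencing, although all 5 lay above 0 in Cd146+ cells, with a median of 0.79. In Cd146+ cells 4 of 5 fell with P16, among them Dlgap5, a stabiliser of kinetochore fibres, from 24.5, 32.9 and 21.5 CPM to 8.87, 16.8 and 15.5 CPM (-0.95, SE 0.29). Ckap2l, a spindle protein, fell there from 34.8, 34.9 and 26.1 CPM to 9.76, 20.9 and 18.3 CPM (-0.97, SE 0.30). In Cd31+ cells 2 of 5 fell, including Nusap1, a microtubule bundler, from 22.2, 23.4 and 22.6 CPM to 17.9, 17.97 and 16.9 CPM (-0.37, SE 0.11).

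All 4 members of the central spindle and cytokinesis group fell with P16 in Cd31+ cells, and 2 did in Cd146+ cells. None passed on silencing, although all 4 lay above 0 in Cd146+ cells, with a median of 0.62, and Racgap1, the GTPase-activating subunit of centralspindlin, had all P16 shRNA libraries above all nc shRNA libraries (0.79, SE 0.34). Ect2, the exchange factor that activates RhoA at the furrow, fell in Cd31+ cells from 34.6, 37.6 and 31.4 CPM to 18.1, 22.4 and 26.8 CPM (-0.61, SE 0.18). Anln, the furrow scaffold anillin, fell there from 158, 140 and 112 CPM to 72.7, 107 and 96.2 CPM (-0.56, SE 0.19), without overlap. Prc1, which crosslinks the central spindle, fell in Cd146+ cells from 54.2, 69.6 and 45.4 CPM to 11.3, 23.8 and 35.0 CPM (-1.27, SE 0.42).

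Zwint did not follow the rest. It gave 159, 143 and 172 CPM with nc shRNA and 261, 229 and 255 CPM with P16 shRNA in Cd31+ cells (0.66, SE 0.11, adjusted p = 0.0462). Its adjusted p ranged from 5.6e-05 to 0.0512 over the other settings and from 0.1 to 0.193 with a library left out. In Cd146+ cells it gave 158, 203 and 168 CPM against 339, 251 and 254.5 CPM (0.68, SE 0.20), again with no overlap. With P16 its change was positive but did not pass, 0.18 (SE 0.14) in Cd31+ and 0.42 (SE 0.26) in Cd146+ cells, where empty vector replicate 4 was low at 92.6 CPM.

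Pttg1, securin, the inhibitor of separase, was the only member that rose with P16 in Cd31+ cells, from 12.01, 10.7 and 12.8 CPM to 18.9, 14.6 and 13.97 CPM (0.42, SE 0.17). It passed in 1 of 6 fits that left out a library. Hjurp, the chaperone that deposits Cenpa, was not called in any of the 4 comparisons, but its level relative to the other 45 members was the only one that separated the 2 library classes. It ran from 41.9 to 83.5 CPM (median 71.6) in the 8 libraries holding Xist and from 72.7 to 229 CPM (median 140.3) in the 16 holding Y-linked transcripts. Relative to the mean of the other members, on the log2 scale, it ran from 0.34 to 1.67 and from 1.97 to 3.07.

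Between the controls of the 2 vector systems, nc shRNA and empty vector, no member passed in Cd31+ cells by edgeR's or DESeq2's unadjusted p (by edgeR beside 1.73% of all genes lower and 1.43% higher) and the median was -0.01. With nc shRNA in Cd146+ cells 44 members lay below the empty vector, with a median of -0.44, and Cdc20 alone fell (-0.94, SE 0.38, beside 2.13% of all genes), while none rose (beside 1.86%). DESeq2 gave 4 at an unadjusted p under 0.05. For 5 members every nc shRNA library lay below every empty vector library, as for 4.65% of all genes. Without nc shRNA replicate 5 the count was 18, and without nc shRNA replicate 1 or 3 or empty vector replicate 4 or 5 it was 0. With the block over 12 libraries the median was 0.01 and no member passed.

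Between populations, under both control constructs, 6 libraries were set against 6 as independent, although some share a replicate number within a population and such libraries deviated together. Some numbers also recur across populations, and no block was fitted across populations. The library classes were uneven between the sides. Of 3 libraries each, 0 with nc shRNA and 1 with the empty vector held Xist in Cd31+ cells, and 1 and 2 in Cd146+ cells. Library class was not a term in this fit. In it 42 members lay lower in Cd146+ than in Cd31+ cells, with a median of -0.32 (0.02 over all genes). At p under 0.05, 14 (30.4%) were lower, beside 9.12% of all genes, and Pttg1 was higher (0.29), beside 8.34%. Smc4 (-0.54, SE 0.12), Cenpf (-0.55), Sgo2a (-0.59) and Ncapd2, a condensin subunit (-0.52), passed with any library left out, though none passed at an adjusted p by edgeR, whereas 3 members did by DESeq2. The total of 15 went to 9 without Cd31+ nc shRNA replicate 2, to 9 without Cd31+ empty vector replicate 1 and to 7 without Cd31+ empty vector replicate 2. For the response to silencing, all 46 members had a larger estimate in Cd146+ cells (median difference 0.52). That median was 0.21 without Cd146+ P16 shRNA replicate 3, 0.25 without Cd146+ nc shRNA replicate 1 and 0.38 with the replicate block, and within the Cd146+ libraries holding Xist the silencing median itself was 0.0083. The interaction passed only for Sgo2a (0.83, SE 0.36, beside 0.599% of all genes), while none had a lower estimate that passed, beside 0.605%. It passed for 0 to 8 members with a library left out. For overexpression 43 members had the lower estimate in Cd146+ cells (median difference -0.53), and 3 passed, Pttg1 (-0.64), Spc25 (-0.69) and Cenpn (-0.90), beside 1.78% of all genes, all with the lower estimate in Cd146+ cells; none passed the other way, beside 2.04%. That count was 9 without Cd146+ P16 replicate 5 and 0 without Cd31+ P16 replicate 2 or Cd146+ empty vector replicate 4, and with the replicate block it was 0 and the median was -0.16. None of these interactions passed at an adjusted p by edgeR or DESeq2.

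Other genes of the same pathway, 92 in 4 lists of which 91 could be tested, differed by list. Pooled, 10 of 91 rose and 3 fell on silencing in Cd31+ cells (median 0.11), beside 9.51% and 10.3% of all genes, so the share that rose was near the background. In Cd146+ cells 15 rose and 2 fell (median 0.43), beside 5.44% and 6.18%. On overexpression 2 rose and 18 fell in Cd31+ cells (median -0.21), beside 1.45% and 2.29%, and none rose and 21 fell in Cd146+ cells (median -0.46), beside 1.55% and 1.99%. The 22 other checkpoint and anaphase-promoting complex genes had a median of 0.06 with P16 in Cd31+ cells and of -0.03 in Cd146+ cells. Of these, Anapc2, a catalytic core subunit, fell on silencing in both populations (-0.41 in Cd31+, -0.61 in Cd146+), while the scaffold subunit Cdc16 rose (0.36 and 0.43). Among 15 cohesin and condensin II genes, 6 fell with P16 in Cd31+ cells, including the cohesin subunit Rad21 (-0.47) and its partner Pds5a (-0.40), for a median of -0.32. None of them rose on silencing in either population, and their median in Cd146+ cells was -0.03, with 9 below 0 and 6 above. Among 26 other spindle, kinase and cytokinesis genes, 8 fell with P16 in Cd31+ cells (median -0.30) and 10 in Cd146+ cells (median -0.93).

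Members with and without CHR letters did not fall into separate ranges. In Cd146+ cells with P16 the median log2 fold change was -0.93 for the 28 with and -0.79 for the 11 without, in Cd31+ cells with P16 it was -0.37 and -0.23, and on silencing it was 0.22 and 0.13 in Cd31+ and 0.71 and 0.76 in Cd146+ cells. The fold changes of long genes ran lower in some comparisons. Across the 46 members, as a description over genes, Spearman's rho between gene length and log2 fold change was -0.59 for overexpression in Cd31+ cells and -0.57 between populations, against -0.23 and -0.12 over all genes, and -0.05 for overexpression in Cd146+ cells. The part of length in these results was not tested. Of the members 24 overlap another annotated gene, and for 8 of them, Cenpk, Ska3, Cdc20, Sgo2a, Cdca8, Ncapg, Nusap1 and Prc1, a gene on the opposite strand had over 0.1 of the member's CPM. Since the use of strand in counting was not stated, reads of these genes and their partners cannot be told apart with certainty.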

How the data were processed

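Poly(A) RNA of 24 libraries (3 in each of 8 groups, taken from the labels) was analysed. The authors deposited raw read counts per gene, FPKM values, group mean counts (a signal column per group, not used), and log2 fold changes with p-values of 4 comparisons of their own, held in 20 columns, which were not used. The submitters' processing notes name fastp and mm9; the counting tool, annotation and strand setting are not given in the sources used here. The labels describe both directional and non-directional libraries, and the methods name 6 samples for each sequencing arm.

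Counts as deposited were tested with edgeR 4.0.16 in R 4.3.3 (TMM, filterByExpr, robust glmQLFit, glmQLFTest, Benjamini-Hochberg over all genes tested), on the libraries of the groups compared only, or on all 24 libraries for interactions. The fitting functions were tested on simulated independent libraries for silencing in Cd31+ cells (edgeR with and without the block, and DESeq2). By edgeR they were also tested for overexpression in Cd146+ cells and for the silencing interaction, but not for the other comparisons and settings. CPM are TMM-scaled over 24 libraries. The principal component, the heatmap and the values by pair and library class used log2 CPM with nothing added. The correlations between libraries used edgeR's log CPM. Counting error allows for up to 0.113 to 0.195 CPM (3 counts) where a count is 0. No 2 libraries were identical. The labels do not say whether replicates are separate animals or cultures, so p-values measure only the spread between these libraries.

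The members and lists were chosen with earlier results of these data known. Members named with values were drawn from the 2 most abundant of each role group, the 4 with the lowest p in each direction, those with an adjusted p under 0.05, and up to 3 that ran against the median; not all of these were printed (Ska3 and Ckap2, for example). Further values of Bub1, Cdca8, Cenpn, Nek2, Nuf2, Nusap1, Prc1, Sgo1, Sgo2a, Spc24, and the members listed as shared between populations, were chosen after they were seen. Libraries sharing a number were compared on deviations from group means. In Cd31+ cells the 13 same-number pairs had a median r of 0.559 (lowest 0.384), and in Cd146+ cells the 10 pairs had 0.711 (lowest 0.389). Between numbers the medians were -0.174 and -0.0725, but the highest values, 0.402 and 0.460, lay above the lowest same-number ones. On these medians the numbers, given in the labels, were taken to pair libraries. Alternatives were DESeq2 1.42.0 and its size factors, no filter or a mean of 10 counts, all 12 libraries of a population, a replicate block, a term for Y-linked transcripts, and each library left out. Values within libraries holding Y-linked transcripts or Xist were added after seeing the data. Promoters are from RefSeq (GRCm38.p6).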

Additional observations from a re-analysis of the deposited data

How the results depend on the processing

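The median log2 fold change of the members kept its direction in the 4 comparisons with P16 constructs under every setting run. With a library left out it ran from 0.13 to 0.29 (silencing) and -0.43 to -0.21 (overexpression) in Cd31+ cells. In Cd146+ cells it ran from 0.40 to 0.94 and -1.07 to -0.60. The overexpression median there was smaller in size, as given above, with the block over 12 libraries. The counts, given here without the share of all genes in the same fit, were less steady. Silencing in Cd31+ cells gave 15 members with all genes of at least 1 count and 16 with either replicate block, and at an adjusted p 0 with DESeq2 size factors, 3 with all genes, 3 with DESeq2, 9 with the block within the groups and 6 with the block over 12 libraries; with a library left out it gave 5 to 12, and 0 to 0 at an adjusted p. Overexpression in Cd31+ cells gave 11 with the block within the groups, 1 of them at an adjusted p, and 4 to 23 with a library left out. Silencing in Cd146+ cells gave 9 with the block within the groups, 29 with the block over 12 libraries, 5 of them at an adjusted p, and 4 to 20 with a library left out; its median was 1.53 within Y-linked libraries and 0.0083 within Xist libraries, a split chosen after seeing the data. Overexpression in Cd146+ cells gave 4 with the block over 12 libraries, 12 with the Y-linked term and 1 to 22 with a library left out; the block within its groups could not be estimated, for want of residual degrees of freedom. The control comparison in Cd31+ cells gave 2 with all genes, 1 in the fit of 12 libraries, 2 and 3 with the blocks, 3 with the Y-linked term and 0 to 3 with a library left out. That in Cd146+ cells gave 3 with all genes, 4 with DESeq2, 0 with the block over 12 libraries (median 0.014), 0 with the Y-linked term and 0 to 18 with a library left out. Between populations DESeq2 gave 3 at an adjusted p, and 7 to 20 passed with a library left out. The silencing interaction gave 2 with all genes, 3 with the block over 24 libraries and 0 to 8 with a library left out, and the overexpression interaction 0 with that block (median -0.16) and 0 to 9. Signs turned for Top2a on silencing in Cd31+ cells without nc shRNA replicate 3 (-0.022) or P16 shRNA replicate 2 (-0.029; -0.029 to 0.25 over the leave-outs), for Hjurp on silencing in Cd146+ cells without P16 shRNA replicate 3 (-0.60; to 0.50), for Pttg1 there with the block within the groups (-0.057), over 12 libraries (-0.0051) and without P16 shRNA replicate 6 (-0.043; to 0.44), and for Hjurp on overexpression in Cd146+ cells without empty vector replicate 2 (0.50), P16 replicate 1 (0.054) or P16 replicate 5 (0.14; -0.36 to 0.50). None of these had passed a test, and the causes were not tested.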
